A study of Mus musculus with 9 samples.

Results

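The 5 control pools of a colon microarray series are described here: the mice that ate a high-fat diet without added heme, sampled on days 0, 2, 4, 7 and 14. They are all the control arrays, 5 of the 9 arrays in the series, and were chosen by their diet label alone. The other 4 are heme pools of days 2, 4, 7 and 14, from mice whose feed was otherwise alike but held 0.2 µmol of heme in each g. They enter where a control result is looked up in a second set of mice and in the tests over both diets. They also count in the mean over all arrays by which the genes tested and the probeset of each gene were chosen. All mice were male C57BL/6J, 9 to 11 weeks old per the labels, and had eaten the control diet, in which fat gave 40% of the energy, for 1 week before day 0. Every control pool therefore carried the high-fat diet, no low-fat group is part of the comparison, and day 0 follows a week on this feed and is no state before the diet. The colon was freed of mesenteric fat, opened, washed and scraped to collect epithelial cells. RNA of the mice of a day was then combined and put on 1 array. A pool held 4 mice, except the pool of day 2, which held 3.

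The colon epithelium is a single sheet of cells renewed from stem cells at the crypt base. Its cells become absorptive colonocytes, which take up water, salt and short-chain fatty acids, or goblet, enteroendocrine and tuft cells. Beneath it lie the fibroblasts, vessels, immune cells and thin smooth muscle of the lamina propria and muscularis mucosae, and a scraping can take up more or less of these. In a bulk sample, fewer cells of a type and less RNA per cell cannot be told apart.

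The values are log2 expression values, on which a difference of 1 is a 2-fold difference. The table was read as 19938 named genes, of which 14953 were tested, and the array medians over these genes lay between 6.21 and 6.28 log2. Signal of genes not made in colon gave a background level: the 95th percentile of 1194 olfactory and vomeronasal receptor genes was 4.93 log2, and 14127 of the genes tested had a mean over the control pools above it. Each day has 1 control pool, so the day, the mice in the pool and the array cannot be told apart, and every p-value below rests on how pools of unlike days scatter and says nothing of the scatter among single animals. The pools of days 2 and 7 stood apart from the rest. Genes of the exocrine pancreas were high in the day 2 pool, where stromal genes were low, and smooth muscle genes were high in the day 7 pool. The same held in the heme pools of those days.

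Markers of the labelled tissue were present. All 14 genes of general intestinal epithelial identity, all 14 colonocyte genes and all 12 goblet genes found on the array lay above the background level, with list medians of 11.14, 11.39 and 9.46 log2. Epcam, the epithelial adhesion molecule, was 11.71 log2 on day 0, 11.73 on day 2, 11.71 on day 4, 11.71 on day 7 and 11.75 on day 14. Car1, the cytosolic carbonic anhydrase of colonocytes, read 13.33, 13.35, 13.38, 13.37 and 13.41 log2 on the same days. Muc2, the main gel-forming mucin of goblet cells, read 13.28, 13.27, 13.25, 13.18 and 13.20 log2. The range between control pools was 0.040 log2 for Epcam, 0.081 for Car1 and 0.10 for Muc2. The stroma was present as well: all 18 smooth muscle genes, all 19 fibroblast and matrix genes and all 14 endothelial genes on the array lay above background. Of 12 granulocyte and mast cell genes 4 lay above background. S100a8, a defining gene of neutrophils, read 3.53 to 3.59 log2, while the brightest gene of that list had a mean of 10.86 log2. Of 7 adipocyte genes 6 lay above background, among them Fabp4 at 6.33 to 7.51 log2, while the hormone gene Lep stayed below it.

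Most genes varied little from pool to pool. The standard deviation (SD) of a gene over the 5 control pools had a median of 0.073 log2 over the genes tested, a 10th percentile of 0.030, a 90th of 0.163 and a 99th of 0.400. An SD under 0.1 log2, taken here as stable, was found for 10329 genes, or 69.1% of those tested. A range of 1 log2 or more between the lowest and the highest pool, taken as variable, was found for 151 genes, or 1.01%. Brighter genes varied less: the median SD was 0.102 among the 4315 genes with a mean under 6 log2 and 0.046 among the 903 genes at 10 log2 or more, of which 93.5% had an SD under 0.1. The normalization leaves identical values in some pools, in 5146 genes for 2 or more control pools and in 23 genes for all 5, which makes the SD of such genes too small.

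**Figure D1:**
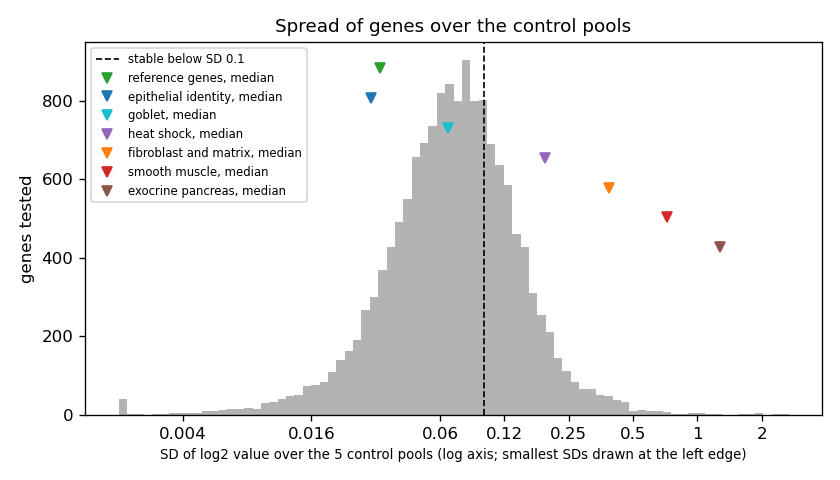
Histogram of the SD of each of the 14953 genes tested over the 5 control pools, on a log axis, with the stable threshold of 0.1 log2 as a dashed line. Triangles mark the median SD of gene lists, from 0.030 for epithelial identity to 1.28 for the exocrine pancreas list; their height carries no value.

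Genes of epithelial identity and of colonocytes were among the steady ones. Of the 14 epithelial identity genes, 13 had an SD under 0.1 and the list's median SD was 0.030, beside 0.073 over all genes. The keratin gene Krt19 read 12.84, 12.84, 12.84, 12.83 and 12.84 log2 over days 0, 2, 4, 7 and 14. Lgals4, a galectin of the apical membrane, stayed between 12.71 and 12.72 log2. The exception was Elf3, an epithelial transcription factor, at 10.67 log2 on day 0 and 10.33 to 10.49 on the later days (SD 0.127). Among colonocyte genes 12 of 14 had an SD under 0.1, including Slc26a3, the chloride-bicarbonate exchanger (11.89 to 11.99 log2), Guca2a, which encodes the peptide guanylin (12.28 to 12.33), and Krt20 (11.25 to 11.35). The most variable colonocyte gene named was the sodium-proton exchanger Slc9a3, with 10.09, 10.41, 10.45, 10.18 and 10.44 log2 (SD 0.167). The identity and colonocyte lists are bright, and their shares of stable genes are to be read beside the 93.5% of all genes at 10 log2 or more. Lists of other epithelial cells were less steady. An SD under 0.1 was found for 8 of 12 goblet genes, beside 86.9% of all genes at 8 to 10 log2. It was found for 6 of 15 enteroendocrine and 5 of 10 tuft genes, beside 68.4% of all genes at 6 to 8 log2.

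Genes of energy use also varied little. All 14 respiratory chain genes on the array had an SD under 0.1 (median SD 0.0385), with the ATP synthase subunit Atp5b at 12.47 to 12.50 log2. So did 11 of 12 genes of short-chain fatty acid use, the transport and oxidation of the butyrate that feeds colonocytes. Slc5a8, the sodium-coupled monocarboxylate transporter, stayed between 11.27 and 11.37 log2, and Slc16a1, the proton-coupled one, between 10.90 and 11.03. Of 18 genes of glycolysis and the response to low oxygen, 14 had an SD under 0.1, beside 69.1% of all genes and 86.9% of the genes at 8 to 10 log2. Egln3, a prolyl hydroxylase of the oxygen-sensing pathway, was the exception with the largest difference and is described with the late pools. Clock genes, which follow the time of day, had a median SD of 0.093, beside 0.073 over all genes and 0.076 among the genes at 6 to 8 log2. Of 16 tested, 10 had an SD under 0.1, beside 68.4% of the genes at 6 to 8 log2, and the largest SD was 0.23. The list's median level was 7.39 log2. The clock repressor Nr1d1 read 9.87, 9.74, 9.71, 9.78 and 9.83 log2 and its partner in the loop Arntl 7.73, 7.62, 7.55, 7.48 and 7.57.

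Common reference genes gave a check of the steadiness. All 15 on the array had an SD under 0.1, with a median of 0.033. Ywhaz, a 14-3-3 protein, lay between 11.87 and 11.90 log2, Rplp0, a ribosomal stalk protein, between 12.70 and 12.73, and Actb between 13.14 and 13.22. The widest of the 15 were Tfrc, the transferrin receptor (SD 0.065), and B2m, the light chain of class I antigen-presenting molecules (SD 0.062). The 15 genes with the smallest SD among the brighter part of the table and with 5 different values were Syde2, Gatad1, Dicer1, Fam168b, Pycrl, Csnk1g3, Sptbn1, Ubac1, Ttyh3, Rab2a, Cmtm6, Lamp1, Itm2b, Lrp10 and Rpl6, all with an SD under 0.01. Dicer1, the nuclease that matures miRNAs, read 8.82, 8.82, 8.82, 8.83 and 8.81 log2. Sptbn1, a spectrin of the membrane skeleton, read 11.03, 11.01, 11.01, 11.02 and 11.02. These 15 were picked by their small SD, so the value is a description. In the heme pools Sptbn1 ranged from 10.85 to 11.00 log2 and Dicer1 from 8.80 to 8.89.

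Of the 151 variable genes, 56 were on any of the gene lists used here. Among the 151, 14 were on the exocrine pancreas list, 25 on the lists of smooth muscle, fibroblasts, endothelium and enteric neurons, 7 were immunoglobulin genes, 7 were on the antimicrobial and acute-phase list and 2 were on any of the epithelial cell-type lists, namely Retnlb and Ang4, which are on the antimicrobial list as well. The day 2 pool was the lowest of the 5 for 92 of the 151. The highest pool was day 14 for 58, day 7 for 55, day 2 for 27, day 4 for 6 and day 0 for 5. Without the day 2 pool 72 genes had a range of 1 log2 or more, and without the genes of the pancreas list 137. Of the 151 genes, 72 (47.7%) also had a range of 1 log2 or more over the heme pools, where 155 genes, or 1.04% of those tested, did so. The 72 were 46.5% of those 155.

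Genes of the exocrine pancreas, the gland that makes digestive enzymes, gave the largest differences of all. Cpb1, a carboxypeptidase, read 4.04 log2 on day 0, 10.09 on day 2, 4.09 on day 4, 4.05 on day 7 and 4.29 on day 14. Cpa1, another carboxypeptidase, read 5.08, 9.61, 5.00, 4.95 and 5.19, and the chymotrypsinogen gene Ctrb1 5.03, 9.61, 5.47, 5.32 and 5.20. In each of them the day 2 pool was high and the other 4 lay together, below the background level of 4.93 log2 for Cpb1 and just above it for Cpa1 and Ctrb1. Taking for each other pool the higher of its own value and the background level, day 2 was at least 35.8-fold higher for Cpb1, 23.4-fold for Cpa1 and 20.4-fold for Ctrb1. Of the 14 genes of the list that were 2-fold or more above the other pools on day 2, 5 lay below background in all other control pools, and 5 had a mean under the filter on dim genes in the arrays other than day 2, so those 5 were tested only because day 2 was high. The genes of the list were not high as one block: the acinar transcription factors Bhlha15 (5.59 to 5.74 log2) and Rbpjl (5.26 to 5.43) and Sycn (10.36 to 10.47) did not stand out on day 2. The hormone genes Ins2 (4.72 to 4.98) and Iapp (5.00 to 5.44) of the endocrine pancreas did not either. The trypsin genes Prss2, Try4, Try5, Try10 and 2210010C04Rik are close relatives, and probes may share their transcripts, so their single values are uncertain.

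The pool of day 2 stood out in more than 1 direction. It was 2-fold or more above the median of the other pools for 20 genes (0.134% of those tested), 14 of them on the pancreas list, and 2-fold or more below for 19 genes (0.127%), 9 of them on the smooth muscle or fibroblast list. Dcn, the matrix proteoglycan decorin, was 3.23-fold lower in the day 2 pool, and Acta2, smooth muscle actin, 2.84-fold lower. The heme pool of day 2 shared the higher genes: 18 of the 20 (90%) were also 2-fold or more above the other heme pools, where 27 genes (0.181%) were, and the 18 are 66.7% of those. Of the 14 pancreas list genes, 5 passed the filter on dim genes only through the day 2 pools of the 2 diets. The overlap therefore rests in part on the filter and is no test. Of the 19 lower genes, 1 was 2-fold or more below the other heme pools, where 18 genes (0.12%) were, and all 19 lay lower. The adipocyte hormone Adipoq was also highest on day 2, with 4.79, 6.08, 5.30, 5.48 and 5.70 log2 over the 5 pools. The adipocyte list did not share this: of the 6 genes tested 1 was highest on day 2 and 3 on day 14. Its median against the mean was 0.053 log2 on day 2 and 0.16 on day 14.

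The heme pools allow a test of day 2 itself. With day 2 against days 4, 7 and 14 over both diets, 8 arrays with diet as a term, limma called 19 genes higher (0.127%) and 7 lower (0.0468%) at an adjusted p under 0.05. Cpb1 was at least 43.9-fold higher on day 2, by the same bound (adjusted p = 3.09e-07), and is 1 of the genes that passed the filter only through the day 2 pools. The count of higher genes therefore rests in part on the filter, and how many of the 19 passed it only in this way was not counted. With the filter at the 50th percentile, 5 genes were called higher. Cpa1 was 4.85 ± 0.15 log2 (SE) higher (adjusted p = 1.75e-06) and Ctrb1 4.66 ± 0.21 log2 (adjusted p = 1.78e-05). The others of the 6 highest were Try5, Try10 and 2210010C04Rik. Tff2, a trefoil peptide of stomach and pancreatic ducts, was among the 19 (0.85 ± 0.10 log2 higher, adjusted p = 0.0192). The 7 lower genes were Grem1, Itga8, Crip2, Ramp2, Glipr1, Vsir and Coro1a. Grem1, an antagonist of bone morphogenetic proteins made by crypt-base fibroblasts, was 0.88 ± 0.12 log2 lower on day 2 (adjusted p = 0.0434). The integrin chain Itga8 of smooth muscle and fibroblasts was 0.63 ± 0.082 log2 lower on day 2 (adjusted p = 0.0345). The count of lower genes was not stable: it was 0 without either day 2 pool, 0 without the diet term and 26 with arrays centred on their medians, while the count of higher genes stayed between 16 and 18 when single pools were left out.

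**Figure D2:**
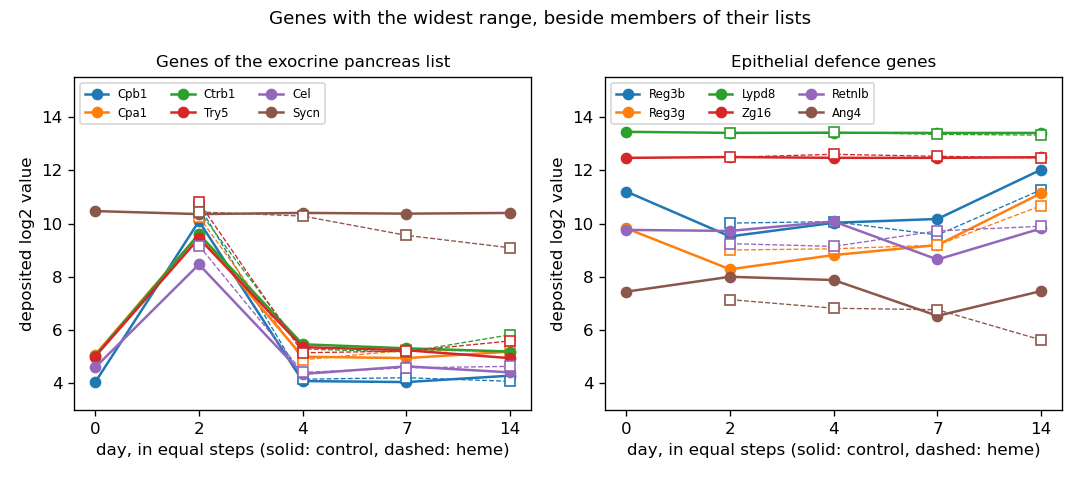
Deposited log2 values of 6 genes of the exocrine pancreas list (left) and of 6 epithelial defence genes (right) by day, solid lines with filled circles for control pools and dashed lines with open squares for heme pools, 1 pool per point. Cpb1 reads 10.09 in the control pool of day 2 and 4.04 to 4.29 in the others, while Sycn stays between 10.36 and 10.47.

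The pool of day 7 was set apart by smooth muscle. It was 2-fold or more above the other pools for 28 genes (0.187%), 13 of them on the smooth muscle list, and 2-fold or more below for 2 genes (0.0134%), Retnlb and Ang4. The smooth muscle list as a whole deviated from its own mean over the control pools by a median of -0.44 log2 on day 0, -0.69 on day 2, -0.071 on day 4, 1.18 on day 7 and 0.20 on day 14. Of its 18 genes, 17 were lowest in the day 2 pool and 17 highest in the day 7 pool. Myh11, the smooth muscle myosin heavy chain, read 8.57, 8.05, 9.05, 10.52 and 9.36 log2 over the 5 days. Cnn1, the actin-binding protein calponin, read 6.89, 6.30, 7.06, 9.20 and 7.67, and Pln, which regulates the calcium pump, 5.36, 4.92, 5.08, 7.39 and 5.75. All 28 genes were also higher in the heme pool of day 7 than in the other heme pools, 13 of them by 2-fold or more, where 23 genes (0.154%) passed that fold.

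Against the median of the other pools, the pools of days 0, 4 and 14 held few genes past 2-fold. For day 0 these were 1 gene above (0.00669%) and 5 below (0.0334%), for day 4 1 above (0.00669%) and 0 below (0%), and for day 14 2 above (0.0134%) and 0 below (0%). With a threshold of 1.5-fold the order changed: 98 genes lay above on day 14, 88 on day 7 and 34 on day 2, and 111 lay below on day 2. Reg3b was the gene above on day 0, and Reg3b and Reg3g were those above on day 14. The 5 genes below on day 0 were Aspn, Car3, Cyp2e1, Igha and 1 other immunoglobulin gene. On day 0 Car3, a carbonic anhydrase of muscle and fat, was low at 6.88 log2, beside 8.34, 7.37, 8.31 and 8.62 on the later days. Fabp4, the fatty acid binding protein of adipocytes, followed the same line with 6.33 log2 on day 0 and 7.18 to 7.51 later. All 6 adipocyte genes tested had their lowest value on day 0, 1 of them, Plin1, at the same value in all pools. On day 4 the gene above was Igkv19-93, an immunoglobulin light chain segment, with 7.08, 7.38, 9.45, 8.04 and 7.94 log2.

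The lectins Reg3b and Reg3g had the largest SD on the list of antimicrobial and acute-phase genes. They are secreted antibacterial proteins, known for being induced by gut bacteria and by injury. Reg3b read 11.21 log2 on day 0, 9.52 on day 2, 10.03 on day 4, 10.18 on day 7 and 12.03 on day 14, and Reg3g 9.83, 8.29, 8.82, 9.20 and 11.14. Both were lowest on day 2 and highest on day 14, a range of 5.69-fold for Reg3b and 7.24-fold for Reg3g. The late and early pools overlapped, and the late-minus-early difference was 0.38 ± 0.78 log2 (SE, adjusted p = 0.922) for Reg3b and 0.66 ± 0.82 (adjusted p = 0.863) for Reg3g. The heme pool of day 14 was also the highest of its diet for both, at 11.27 and 10.68 log2. Other defence genes did not share this course. Lypd8, which keeps bacteria off the colon surface, stayed at 13.41 to 13.45 log2 and the goblet lectin Zg16 at 12.47 to 12.50, while Retnlb and Ang4 were lowest on day 7 (8.65 and 6.54 log2). The upstream sequences of the pair are shown because both genes moved together: the 250 bases before the RefSeq start on build GRCm38.p6, 5′ to 3′ along the gene, with TATAAA on either strand in capitals. Reg3b lies at chr6:78370635-78370884 on the plus strand and Reg3g at chr6:78468875-78469124 on the minus strand.
Reg3b: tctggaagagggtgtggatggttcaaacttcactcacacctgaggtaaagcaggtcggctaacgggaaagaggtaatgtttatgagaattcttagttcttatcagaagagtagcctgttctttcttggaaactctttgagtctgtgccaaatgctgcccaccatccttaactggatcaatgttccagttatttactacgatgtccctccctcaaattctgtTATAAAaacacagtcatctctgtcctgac
Reg3g: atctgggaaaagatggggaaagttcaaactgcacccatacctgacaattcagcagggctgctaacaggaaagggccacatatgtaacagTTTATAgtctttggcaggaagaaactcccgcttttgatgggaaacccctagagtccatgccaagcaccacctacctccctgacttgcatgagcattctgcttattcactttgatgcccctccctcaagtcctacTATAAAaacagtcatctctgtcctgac
A global alignment of the 2 windows was identical in 175 of 254 columns (68.9%). Both hold TATAAA just before the start, from base 29 to 24 before it in Reg3b and from 27 to 22 in Reg3g, which has a match on the opposite strand further up. TATAAA was found on either strand in 12.4% of 32851 promoters of the same length. These windows lie before the transcript, so their likeness does not show whether probes share transcripts. The transcripts of the 2 genes were not compared, and part of either gene's signal may come from the other.

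Days 4, 7 and 14 were next set against days 0 and 2, 3 pools against 2, to ask whether the control colon moved over 2 weeks of continued diet. limma called 0 genes of 14953 (0%) at an adjusted p under 0.05, with a smallest adjusted p of 0.406. An unadjusted p under 0.05 was found for 1217 genes, 592 higher and 625 lower. By chance 748 of the 14953 genes are expected under that p in any of the comparisons. A slope on the logarithm of the day called 0 genes as well, with 1073 at an unadjusted p under 0.05. A difference of 1 log2 or more was seen for 20 genes upward and 16 downward. The 3 late pools all lay above both early pools for 1445 genes (9.66%) and below them for 1726 (11.5%). The median difference over all genes was -0.0041 log2. Another scaling of the arrays brought 1 gene past the threshold, Aspn, as given next.

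The genes with the highest late-minus-early differences, among those whose late and early pools did not overlap, were muscle, matrix and immunoglobulin genes: Tagln, Cnn1, Acta2, Myh11, Myl9, Actg2, Dcn, Pgm5, Aspn, Des, Igkv19-93 and 1 other immunoglobulin light chain segment. Aspn, the matrix protein asporin, read 6.53 log2 on day 0, 6.61 on day 2, 7.66 on day 4, 7.95 on day 7 and 7.90 on day 14. The early pools lay close together, and the late pools all lay more than 1 log2 above them. The difference was 1.27 ± 0.096 log2 (SE), or 2.41-fold (adjusted p = 0.406), and it kept between 1.21 and 1.36 log2 without any single pool. With the arrays centred on their medians its adjusted p was 0.0101, and with the arrays quantile-normalized again 0.0262. Dcn read 9.12, 8.23, 9.98, 9.86 and 10.14 log2, a difference of 1.32 ± 0.26 (adjusted p = 0.406). Acta2 read 9.89, 9.00, 10.34, 11.47 and 10.66, a difference of 1.38 ± 0.41 (adjusted p = 0.51), which was 1.06 without day 7 and 0.93 without day 2.

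**Figure D3:**
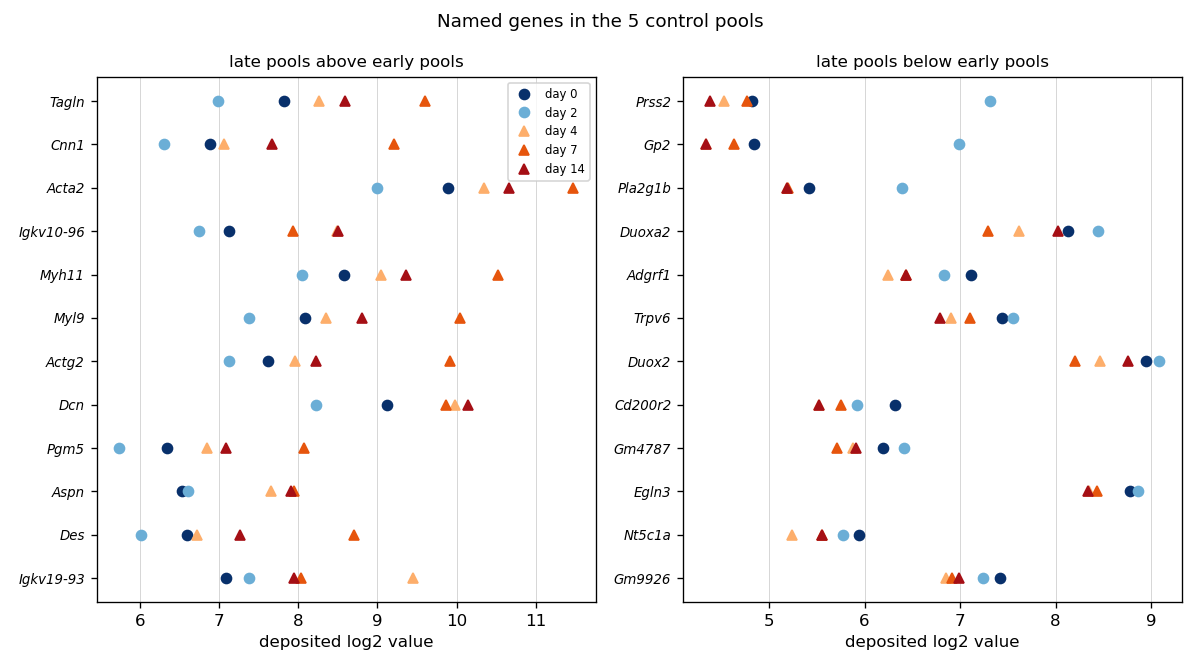
Deposited log2 values of the 12 highest and 12 lowest late-minus-early genes without overlap, 1 point per control pool, circles for days 0 and 2 and triangles for days 4, 7 and 14; points can hide each other. Aspn has its late pools at 7.66 to 7.95 and its early pools at 6.53 and 6.61.

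By cell type, each stromal list lay higher in the late pools. All 18 smooth muscle genes had late pools above both early pools, beside 9.66% of all genes, and their median difference was 0.97 log2 (0.25 to 1.42). It was 0.63 log2 without the day 7 pool and 0.86 without day 2. Of 19 fibroblast and matrix genes 18 did not overlap, all 19 lay higher, and the median difference was 0.63 log2, between 0.50 and 0.72 without any single pool. Col3a1, a fibrillar collagen, read 8.41, 8.13, 8.85, 8.61 and 9.19 log2, and Postn, the matrix protein periostin, 8.23, 7.75, 8.99, 8.85 and 9.37. The fibroblast list was highest on day 14 for 17 of 19 genes, where the smooth muscle list was highest on day 7, so the late pools did not differ from the early ones in 1 way. All 14 endothelial genes lay higher (median 0.41 log2, 11 without overlap). Kdr, a receptor for vascular growth factor, read 5.84, 6.18, 6.62, 6.48 and 7.01 log2. None of the genes of these 3 lists passed the test over all genes. In the heme pools, which share no mice with these, the mean of days 4, 7 and 14 lay above day 2 by a median of 0.65 log2 for smooth muscle, 0.56 for fibroblasts and 0.33 for endothelium. For smooth muscle this came with day 7: against the control mean the heme list median was -0.69 log2 on day 2, -0.41 on day 4, 0.53 on day 7 and -0.57 on day 14, and 5 of the 18 genes were lowest on day 14.

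**Figure D4:**
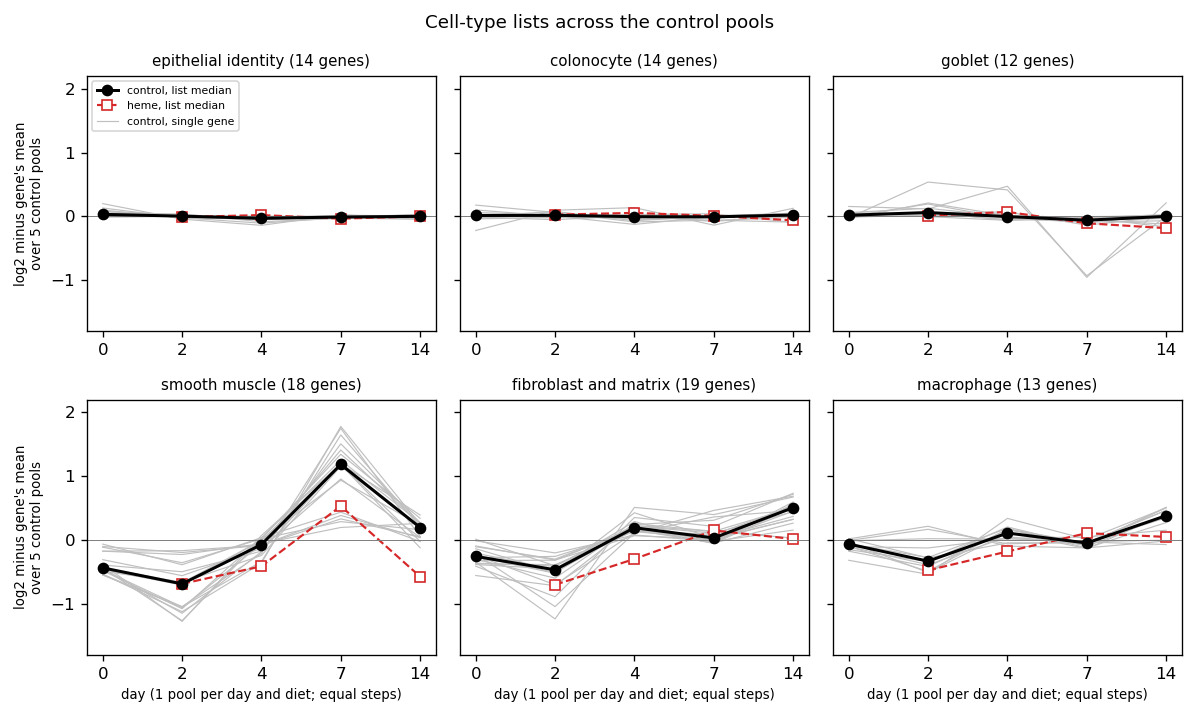
Cell-type lists across the days: each grey line is 1 gene in the control pools, as its log2 value minus its mean over the 5 control pools, black circles are the list's median in the control pools and open red squares that in the heme pools, 1 pool per point. Epithelial identity stays within 0.032 log2 of 0 while smooth muscle runs from -0.69 on day 2 to 1.18 on day 7.

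Genes of immune cells in the lamina propria were looked at by cell type. Of 13 macrophage genes 10 lay higher in the late pools, 6 without overlap, beside 9.66% of all genes, and 2 lay lower without overlap, beside 11.5%. The list's median was 0.33 log2, and 0.195 without either day 2 or day 14. The lysozyme gene Lyz2 read 8.50, 8.28, 9.15, 8.82 and 9.32 log2, a difference of 0.71 ± 0.16 that did not pass the test. All 6 class II antigen-presenting genes lay higher, 2 without overlap (median 0.37 log2, and 0.22 without day 14), with H2-Aa at 9.12, 8.81, 9.49, 9.09 and 9.69. Jchain, which joins secreted IgA and IgM of plasma cells, read 9.54, 9.41, 10.30, 9.74 and 10.24. T and NK cell genes went both ways, 7 of 13 higher and 6 lower, from -0.20 to 0.25 log2 (median 0.0093), with Cd3e of the T cell receptor complex at 5.97 to 6.04 in all 5 pools. Most macrophage and class II genes were lowest on day 2 and highest on day 14, as were most fibroblast genes, and their part in each other's difference was not tested.

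Epithelial lists moved little between early and late pools. The median difference was -0.034 log2 for epithelial identity, -0.021 for colonocytes, -0.076 for goblet cells, -0.051 for enteroendocrine and -0.083 for tuft cells, and none of their genes passed the test. Without single pools the medians ran from -0.0094 to -0.046 for epithelial identity, -0.013 to -0.036 for colonocytes, -0.048 to -0.096 for goblet cells and -0.0097 to -0.075 for enteroendocrine cells. The tuft median was 0.037 log2 without day 2, with 6 of 10 genes higher, so its lower value rests on that pool. All 12 goblet genes lay lower, 5 without overlap, beside 11.5% of all genes. Spdef, the goblet transcription factor, read 9.05, 9.30, 9.10, 9.06 and 8.92 log2. Of 13 tight junction genes 10 lay lower, 5 without overlap, including the scaffold Tjp1 with 10.28, 10.27, 10.05, 10.16 and 10.14. That list's median was -0.10 log2, -0.053 without day 4 and -0.069 without day 0. All 5 mucin genes of the membrane-bound class lay lower (median -0.13 log2), among them Muc1 at 7.07, 6.46, 6.45, 6.55 and 6.19. All 4 growth inhibitors of the surface epithelium lay lower (median -0.14 log2), with Bmp2 at 8.83, 8.85, 8.65, 8.75 and 8.65 and Il15 at 8.35, 8.29, 8.10, 8.21 and 8.13. These shifts go the opposite way to those of the stromal genes in the same pools, and the part of the stromal share in them was not tested.

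Among single genes, the named genes with the lowest late-minus-early differences without overlap were Prss2, Gp2 and Pla2g1b of the pancreas, which rest on day 2. Then came Duoxa2, Adgrf1, Trpv6, Duox2, Cd200r2, Gm4787, Egln3, Nt5c1a and Gm9926. Egln3 read 8.78 and 8.86 log2 on days 0 and 2 and 8.35, 8.44 and 8.34 on days 4, 7 and 14. The difference was -0.44 ± 0.048 log2 (adjusted p = 0.406) and lay between -0.40 and -0.49 without any single pool. Trpv6, the calcium channel of the apical membrane, read 7.44, 7.55, 6.90, 7.10 and 6.79 (-0.56 ± 0.10, adjusted p = 0.406). Duox2, an oxidase that makes hydrogen peroxide at the surface, read 8.95, 9.09, 8.46, 8.20 and 8.76, and its maturation factor Duoxa2 8.13, 8.44, 7.62, 7.29 and 8.02. Both of the pair were high in both early pools and lowest on day 7. In the heme pools the change from day 2 to the later days was -0.99 log2 for Trpv6, -0.28 for Duox2 and -0.095 for Egln3. The difference between diets in late minus early was called for 0 genes (0%), with 425 at an unadjusted p under 0.05, and for 14 genes without the day 2 control pool.

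Several lists had day 0 as the lowest or the highest pool for most of their genes, and heat shock and hindgut genes are given first. Heat shock genes, chaperones that fold damaged protein, lay lowest on day 0 in 12 of 13 genes, with a list median of -0.29 log2 against the mean, beside 0.022 to 0.11 on the later days. Hsph1 read 8.86 log2 on day 0 and 9.87, 9.63, 9.71 and 9.78 on days 2, 4, 7 and 14. Dnaja1 read 9.99 and then 10.56, 10.45, 10.50 and 10.43. Hspa1a, the stress-induced chaperone, read 7.52, 7.67, 7.85, 8.25 and 7.74, and a near-identical neighbour gene, Hspa1b, may add to it. All 13 lay higher in the late pools (median 0.18 log2), 5 without overlap, beside 9.66% of all genes. The median was -0.00015 without day 0 and 0.40 without day 2. Genes of the endoplasmic reticulum stress response were lowest on day 0 in 13 of 18 cases, among them the chaperone Hspa5 with 11.05, 11.40, 11.33, 11.28 and 11.50. The hindgut position list went the other way. Of its 6 Hox genes 5 were highest on day 0, with Hoxd10 at 7.94 log2 on day 0 and 7.18 to 7.32 later, and Hoxd11 at 7.08 and then 6.46 to 6.59. The list median was -0.18 log2 late minus early, 0.0033 without day 0 and -0.33 without day 2. Epithelial identity genes were highest on day 0 in 11 of 14, by a list median of 0.032 log2, and adipocyte genes lowest, by a list median of -0.26 log2. The heme pools start at day 2, so the day 0 pool has no second set of mice beside it.

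The upstream sequences of 2 of these chaperone genes are shown for the element that heat shock factor binds, whose core is GAANNTTC or TTCNNGAA. The 250 bases before the RefSeq start (GRCm38.p6) are given 5′ to 3′, with either core in capitals. Hspa1a lies at chr17:34972157-34972406 and Hsph1 at chr5:149636337-149636586, both on the minus strand.
Hspa1a: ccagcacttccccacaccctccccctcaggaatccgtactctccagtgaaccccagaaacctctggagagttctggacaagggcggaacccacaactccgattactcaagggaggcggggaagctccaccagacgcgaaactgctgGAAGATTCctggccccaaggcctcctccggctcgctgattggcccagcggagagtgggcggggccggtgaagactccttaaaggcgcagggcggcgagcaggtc
Hsph1: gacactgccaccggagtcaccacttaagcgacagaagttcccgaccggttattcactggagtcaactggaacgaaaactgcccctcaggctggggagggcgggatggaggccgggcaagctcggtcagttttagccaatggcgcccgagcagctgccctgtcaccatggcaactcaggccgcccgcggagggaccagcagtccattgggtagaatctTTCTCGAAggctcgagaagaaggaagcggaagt
The core GAANNTTC stood in the window of 5 of 11 genes of the heat shock list with a promoter in the table (45.5%), beside 6.69% of all 32851 promoters, and TTCNNGAA in 2 of 11 (18.2%), beside 7.17%. Both cores read the same on either strand. In Hspa1a the match ran from base 104 to 97 before the start and in Hsph1 from 33 to 26. A match is a description of letters, not of binding.

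Cholesterol synthesis and DNA replication followed the sampling days in other ways. The 18 cholesterol synthesis genes were high on days 0 and 14 and low on days 4 and 7, with list medians of 0.15, -0.017, -0.16, -0.12 and 0.20 log2 over the 5 pools. Insig1, which holds back the sterol-sensing factor, read 9.95, 9.65, 9.30, 9.40 and 9.99, and Fdft1, which makes squalene, 10.13, 9.71, 9.47, 9.51 and 10.08. All 18 lay lower in the late pools (median -0.098 log2), yet 1 did so without overlap, since day 14 is a late pool and was high. Without day 14 the median was -0.21 log2, and without day 0 it was -0.038, with 7 of 18 genes higher. Of 24 DNA replication genes 23 were highest on day 14, by a list median of 0.19 log2, with Mcm3 of the replicative helicase at 7.18, 7.06, 7.05, 7.12 and 7.50. Mitosis genes were high on both day 0 and day 14 and lowest on day 4 in 16 of 24 genes, with Bub1 at 6.97, 6.95, 6.49, 6.64 and 6.96. The Wnt target Lgr5 of stem cells ranged from 7.09 to 7.21 log2. The immediate early gene Fos, which responds within minutes to handling and injury, read 9.11, 8.47, 7.89, 8.87 and 8.54.

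**Figure D5:**
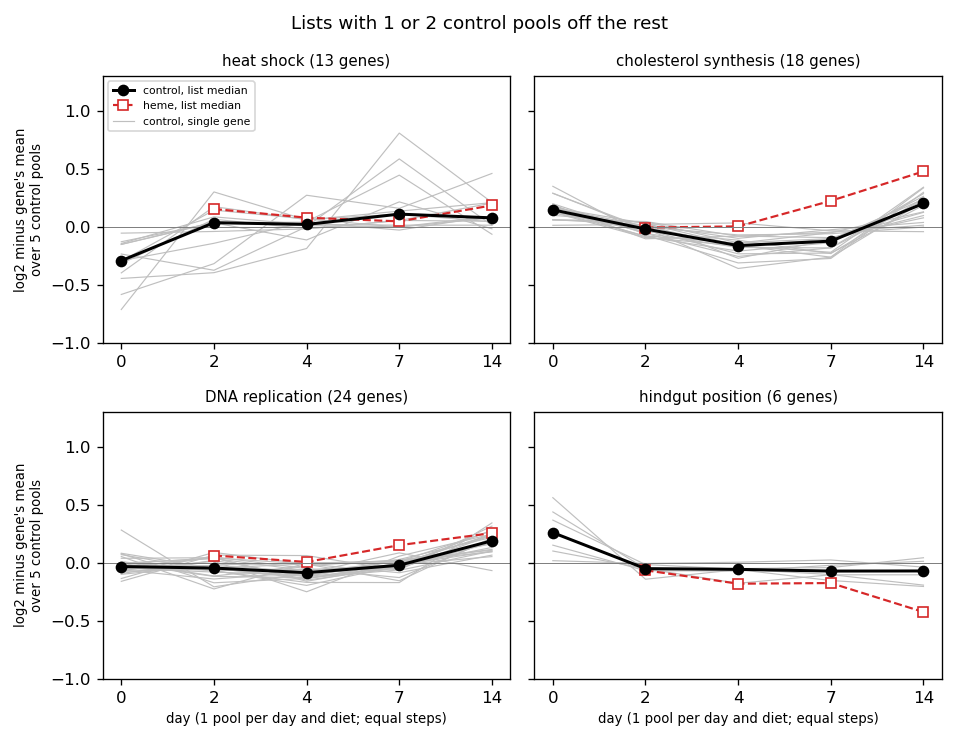
Lists in which 1 or 2 control pools lie off the rest: grey lines are single genes in the control pools, as log2 value minus the gene's mean over the 5 control pools, black circles the list median and open red squares the median of the heme pools, 1 pool per point. Heat shock genes are low on day 0 (-0.29), Hox genes are high on day 0 (0.26), cholesterol synthesis genes are high on days 0 and 14, and replication genes on day 14 (0.19).

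Genes of fat handling, which the high-fat diet could bear on, had a late-minus-early median that turned with the early pool used. The 25 genes of fatty acid oxidation and of the nuclear receptor PPAR had a median difference of 0.0021 log2, 13 higher and 12 lower. Without day 2 it was 0.084 with 21 of 25 higher, and without day 0 it was -0.063 with 5 of 25 higher. Cpt1a, the gate of mitochondrial fatty acid entry, stayed between 10.63 and 10.80 log2. Pdk4, a kinase that turns off glucose oxidation, read 7.62, 8.34, 7.63, 8.28 and 7.74, high on days 2 and 7. The same pair of days was high for Cyp4a10 (3.99, 4.69, 3.99, 4.46 and 4.08), which lay below the background level throughout. It passed the filter on dim genes only through the heme pools, so its course is given as values and backs no pattern. Cd36, a fatty acid translocase also made by vessels and fat cells, had the highest late-minus-early difference of the list, with 6.48, 6.89, 6.99, 7.12 and 7.52 (0.53 log2). The 15 lipogenesis genes had a median of 0.056 log2 (-0.0097 without day 0), with Fasn, fatty acid synthase, at 9.15, 8.98, 8.80, 8.79 and 9.07. None of these genes passed the test.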

How the data were processed

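RNA from scraped colon of male C57BL/6J mice was pooled by day and diet, and each pool was measured on 1 Affymetrix whole-transcript array. The deposited values are log2 expression values that the authors made with RMA, a tool the submitters' processing notes name without a version. RMA scales all arrays to 1 distribution and summarises probes by median polish, which can return the same value for several arrays. Of 35556 probesets, 21789 carried 1 gene symbol, 1621 several and 12146 were unnamed here, and 21698 were matched to RefSeq by Entrez ID. Only probesets with 1 symbol were used, giving 19938 genes. For 999 genes with several probesets the brightest was kept. Genes in the lowest 25% by mean over all arrays were left out, at 4.72 log2, and 14953 were tested.

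Days 4, 7 and 14 were compared with days 0 and 2 in limma 3.58.1 (R 4.3.3) with an intensity trend, and p-values were adjusted by Benjamini-Hochberg over all genes tested. Every adjusted p given comes from limma. The fit was tested on simulated data. The number of arrays limits the precision. Probe levels of different genes were set side by side for the background level, the filter, the list medians and the grouping by brightness. How far the probes themselves shape these levels was not tested. Figures were drawn with matplotlib 3.10.9.

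Genes were named by a rule: the 12 highest and 12 lowest late-minus-early differences without overlap, the 20 most variable and 15 most stable genes, the 4 furthest above and below in each pool, the 6 highest and lowest for day 2, all reference genes, and the first 3 and the extreme members of each list. Other list members were chosen after their values were seen. Of 725 genes on 52 lists 668 were found. The pools compared, the gene lists and the tests were chosen with earlier results of these data known. Alternatives changed the filter, the scaling, the probeset rule, the fold, the model and the pools used.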

Additional observations from a re-analysis of the deposited data

Results flagged for a closer look

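In the following, 1 control pool lay far from the other 4, by a gap that took up most of the range (Dixon's test at 95%). Chance alone marks about 1 in 20 groups of values, and 49 list medians and 39 named genes were checked, of which 6 and 16 were marked. The 39 genes were chosen for large differences between these same pools, so their share cannot be set against that rate. Values are the pool's log2 difference from the median of the other 4.

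Among list medians, the exocrine pancreas list was 2.90 higher on day 2, tuft cell genes were 0.14 higher on day 2, heat shock genes differed by -0.35 on day 0, hindgut Hox genes were 0.32 higher on day 0, DNA replication genes were 0.23 higher on day 14 and stomach genes differed by -0.091 on day 7. All 16 single genes stood out on day 2 and code for secreted pancreatic proteins or their relatives. The carboxypeptidases Cpb1 and Cpa1 were 6.02 and 4.56 higher, and Cpb1 lay below the background level in the other pools. Cpb1 is 1 of the 5 pancreas list genes that passed the filter on dim genes only because day 2 was high. The marks of such genes, and in part that of the list median, therefore rest on the filter and are no test. The trypsin relatives 2210010C04Rik, Try5, Try10 and Prss2 were 5.30, 4.32, 3.97 and 2.66 higher, and these probes may share transcripts. The chymotrypsin relatives Ctrb1 and Ctrl were 4.35 and 3.69 higher, and the elastases Cela2a and Cela3b 3.52 and 2.69. The lipases Pnliprp1 and Cel were 4.16 and 3.96 higher, and the phospholipase Pla2g1b 1.20. Rnase1, Reg1 and Gp2 were 3.56, 2.82 and 2.51 higher. Of the genes named here, Gnat3 of tuft cells read 5.07, 6.04, 5.35, 5.39 and 5.26 log2 over days 0, 2, 4, 7 and 14.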

How the results depend on the processing

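The late-minus-early comparison called 0 genes in limma when any single pool was left out, and 1 gene, Aspn, both with arrays centred on their medians and with arrays quantile-normalized again. Its count of genes at an unadjusted p under 0.05 ran from 961 to 2041 without single pools, highest without day 0. With the filter at the 50th percentile, 89 genes were variable, 6 lay above on day 2 and 18 on day 7, and day 2 over both diets gave 5 higher and 0 lower genes. With the 1.5-fold threshold, 579 genes were variable, and counts above and below were 13 and 51 on day 0, 34 and 111 on day 2, 9 and 7 on day 4, 88 and 10 on day 7, and 98 and 3 on day 14. Centring gave 2 genes above on day 4 and 26 lower for day 2 over both diets. The mean of probesets gave 4 genes above on day 14. Without a diet term 0 genes were lower on day 2. Without the pancreas list, an alternative chosen after seeing the data, 6 genes lay above on day 2, and day 2 over both diets gave 3 higher and 0 lower genes.

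Leaving out single pools gave 72 to 146 variable genes (72 without day 2) and 10154 to 10777 stable ones. Counts above and below ran from 1 to 2 and 4 to 8 on day 0 (8 without day 2), 19 to 21 and 10 to 30 on day 2 (10 without day 14, 30 without day 0 and 29 without day 4), 1 to 3 and 0 to 3 on day 4, 23 to 36 and 2 to 3 on day 7, and 2 to 16 and 0 to 0 on day 14 (15 without day 4, 16 without day 7). Day 2 over both diets gave 16 to 18 higher and 0 to 9 lower genes. The difference between diets gave 0 to 14, with 14 without the control pool of day 2. For 17 of the lists, 202 of 204 medians under these alternatives kept their sign. The exceptions were heat shock (-0.00015) and hindgut position (0.0033) without day 0. All 306 values of the 24 named late-minus-early genes kept theirs. These genes were chosen because their late and early pools did not overlap, so leaving out a pool could not turn their sign. A change of the filter or of the intensity trend leaves the difference as it is. Outside these 17 lists, many medians turned when a single pool was left out. Among them were tuft cells (0.037 without day 2), DNA replication (-0.036 without day 14) and T and NK cells (-0.014 without day 7). Fatty acid oxidation turned without day 0 (-0.063) and without day 7 (-0.020). Without day 0, lipogenesis (-0.0097), endoplasmic reticulum stress (-0.057), detoxification (-0.021), immediate early (0.035) and adipocyte genes (-0.0015) turned as well. Further lists that turned are not given here. The cause of these shifts was not tested. No paired analysis was possible because each day has 1 control pool, for the comparison within the control diet. Across the diets, with day as a replicate block over 8 pools, limma called 0 genes for the difference between diets, and 405 had an unadjusted p under 0.05. All alternatives for that difference were chosen after seeing the data.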

Other observations

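Some lists that belong to none of the comparisons above also varied over the control pools. Detoxification genes were lowest on day 0 in 8 of the 10 tested, with a list median of -0.17 log2 against the mean. Aldh1a1, which oxidises retinaldehyde, read 10.65, 10.94, 11.02, 11.15 and 11.16 log2 over days 0, 2, 4, 7 and 14, and the cytochrome P450 gene Cyp2c65 11.19, 11.52, 11.46, 11.51 and 11.42. Immediate early genes were highest on day 0 in 11 of 19. Egr1 read 6.67, 6.10, 5.96, 6.53 and 6.32 log2, and Atf3 8.00, 7.47, 7.34, 7.78 and 7.48. Of 12 cytokine genes of the NF-kB list 6 were highest on day 0 and 2 on day 2. Some single genes, chosen after their values were seen, were highest on day 2: the chemokine gene Cxcl10 with 5.84, 6.68, 5.50, 5.59 and 5.92 log2 and Ccl20, which draws in dendritic and B cells, with 5.92, 6.68, 6.06, 5.97 and 5.85. Nos2, the inducible nitric oxide synthase, was also highest on day 2 (5.58, 6.25, 5.42, 5.15 and 5.67). None of these genes passed the late-minus-early test, and no test of a single day exists within the control pools.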
